A study of Mus musculus with 136 samples.

Results

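The 6 mouse genes Dlx1 to Dlx6 were followed through 10 deposited lists of peaks, called by the authors from chromatin immunoprecipitation followed by sequencing (ChIP-seq) in mouse embryonic stem cells (ESCs). They are 6 of the 21887 protein-coding genes in the annotation used, and were chosen by name as the Dlx family, not by a measured value. A gene counted as holding a factor or mark when a listed peak overlapped its body or the 2500 bp on either side by at least 1 bp. Each pair of neighbouring genes, with the interval between them and 2500 bp outside, is called a locus here. The 3 loci held 82 of the 607753 peaks in the 10 lists.

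All cells came from the ESC line E14JU, cultured in serum with leukaemia inhibitory factor. SUZ12 was profiled in 3 clones. MCM2-2A clones 439 and 442 are mutant in the part of MCM2 that binds histones, MCM2 being a subunit of the replicative helicase that hands parental histones to new DNA, and clone 410 is wild type (WT). Histone marks were taken from WT clone 410 alone, in a later experiment called rescue here (H3K27me3, H3K4me3, H3K9me3) and in the original experiment (the same marks and H3K27ac). WT was thus represented by 1 clone and MCM2-2A by 2. The authors had combined the replicates (3 for each SUZ12 list and each rescue list, 2 for each original list), so every value below is single, has no replicate error and could not be tested. With 1 WT list against 2 mutant lists, an exact permutation test cannot give p below 0.333. Read depth was unknown.

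Dlx genes encode homeodomain transcription factors related to fly Distal-less. In mammals they stand in pairs that are transcribed towards each other, with shared enhancers in the interval between the genes. Dlx1 and Dlx2, with Dlx5 and Dlx6, direct the development of GABAergic neurons of the ventral forebrain, and the nested activity of Dlx genes along the pharyngeal arches separates upper from lower jaw. In ESCs such developmental genes are typically silent and held by Polycomb repressive complex 2 (PRC2). SUZ12 is a core subunit of PRC2, which places H3K27me3. Promoters that carry H3K27me3 together with H3K4me3, a mark of promoters, are called bivalent. H3K27ac marks active promoters and enhancers, and H3K9me3 marks constitutive heterochromatin.

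Markers were read first as a check of the cell type. Of 9 ESC marker genes, 9 held H3K4me3 and 9 held H3K27ac in WT, and 1, Esrrb, had SUZ12 in its window in each of the 3 clones. These marks were not confined to ESC markers. Over all protein-coding genes 78.1% held original H3K4me3 and 66.1% held H3K27ac. H3K4me3 lay at 5 of 5 genes in each other marker set. H3K27ac lay at 4 of 5 primitive endoderm, 4 of 5 trophoblast, 1 of 5 ventral forebrain and 1 of 5 fibroblast markers. Of 5 markers of ventral forebrain neurons, 5 held SUZ12 in WT and 0 were active, active meaning H3K27ac and H3K4me3 without SUZ12. The number active was 8 of 9 for ESC markers, 0 of 5 for primitive endoderm, 1 of 5 for trophoblast and 0 of 5 for fibroblasts. A gene with SUZ12 in WT cannot count as active. The 0 was thus fixed by the definition for ventral forebrain and primitive endoderm, where 5 of 5 held SUZ12 in WT. The SUZ12 lists had 7571 peaks in 439, 7840 in 442 and 6298 in WT 410, and the mark lists had between 40376 (H3K9me3, original) and 128247 (H3K27ac) peaks.

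SUZ12 lay at 6 of 6 Dlx genes in both MCM2-2A clones and in WT. Over all protein-coding genes the share with SUZ12 was 26.2% in 439, 27.7% in 442 and 22.5% in WT, and 21.3% had it in all 3 lists. No Dlx gene had SUZ12 in the mutant lists alone, a pattern of 3.08% of all genes. The strongest SUZ12 peak of the Dlx genes had a median fold enrichment over local background of 48.4 in 439, 47.7 in 442 and 94.9 in WT, beside medians over all genes with a peak of 16.6 in 439, 14.4 in 442 and 17.3 in WT. The WT median counts the same peak for Dlx1 and for Dlx2, as described next.

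Dlx1 (chr2:71528113-71533981) and Dlx2 (chr2:71543408-71546754) stood 9426 bp apart (coordinates throughout are those of mm10, counted from 1). In mice Dlx1 is needed for the survival of cortical interneurons, and Dlx2 patterns the forebrain and the first pharyngeal arch. In 439, SUZ12 was listed as 2 peaks that met between the genes, chr2:71525251-71538815 over Dlx1 and chr2:71538922-71547687 over Dlx2. In 442 it was listed as 3 peaks, chr2:71525726-71537304 over Dlx1, a small peak at chr2:71537396-71538790 and chr2:71538913-71547676 over Dlx2. WT had a single peak of 22008 bp, chr2:71525734-71547741, across both genes and everything between them. It was the 18th widest of the 6298 WT peaks. The outer edges of the covered stretch differed from WT by 483 bp on the left and 54 bp on the right in 439, and by 8 bp and 65 bp in 442.

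The split left little DNA without SUZ12. The gap was 106 bp in 439, and in 442 the gaps were 91 bp and 122 bp. The main gap lay at nearly the same place in both clones, chr2:71538816-71538921 in 439 and chr2:71538791-71538912 in 442. SUZ12 covered 92.9% of the locus in 439 and 91.9% in 442, against 93.1% in WT. The ratio of covered length to WT was 0.998 for 439 and 0.988 for 442. Over the 4652 gene windows with SUZ12 in all 3 lists the median ratio was 1.08 for 439 and 1.12 for 442. With 93.1% already covered in WT, the ratio at this locus had no room to reach those medians. Of 19 WT peaks of 20 kb or wider, 4 (21.1%) held 2 or more peaks of each mutant list, the Dlx1 and Dlx2 peak among them, and of all WT peaks 0.524% did. This count was chosen after the split had been seen.

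The peak over Dlx2 was the stronger part of the locus in each clone. Its fold enrichment was 83.9 in 439 (rank 160) and 61.7 in 442 (rank 211), against 104 for the joint peak in WT (rank 72). Its summit lay within the Dlx2 body, at position 71544769 in 439, 71544745 in 442 and 71544771 in WT, so the mutant summits were 2 bp and 26 bp from that of WT. The separate Dlx1 peak had a fold enrichment of 44.2 in 439 (rank 1027) and 37.8 in 442 (rank 988). Its summits, at 71530963 in 439 and 71530658 in 442, were 305 bp apart. WT gives no value of its own for Dlx1, because the WT list records only the highest point of the joint peak, which is that at Dlx2. The lower value of Dlx1 in the mutants is therefore not a comparison of like with like.

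**Figure D1:**
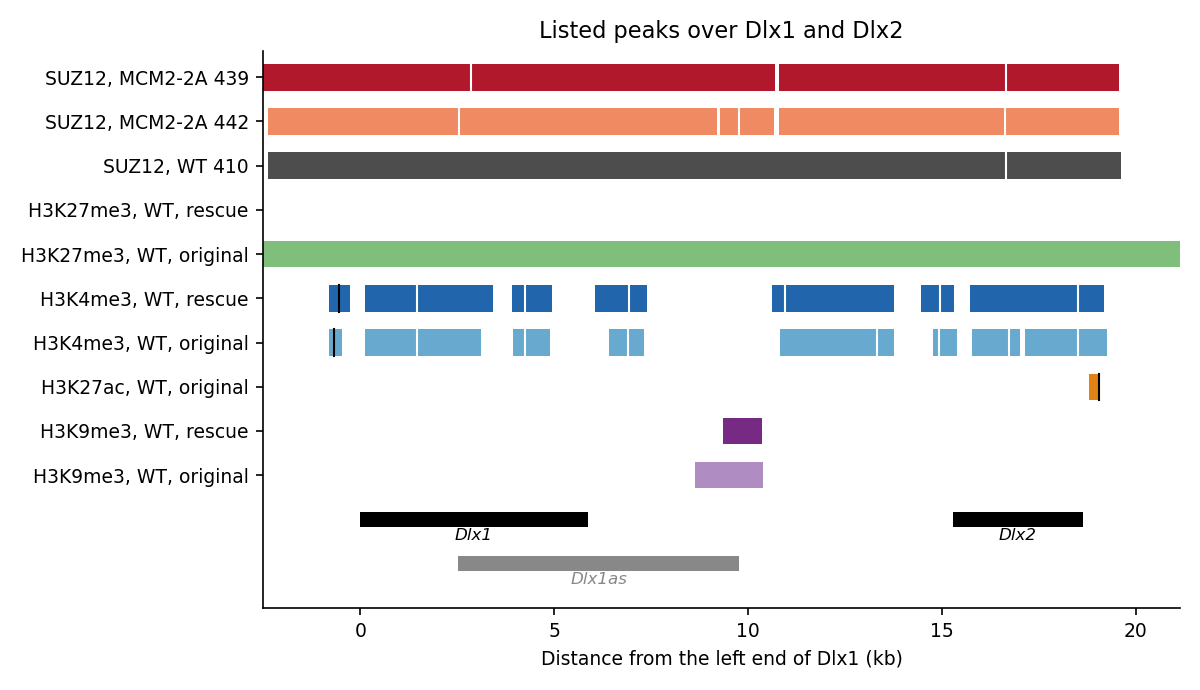
Listed peaks over the Dlx1 and Dlx2 locus, by list from top to bottom (horizontal axis, distance in kb from the left end of Dlx1). Coloured bars are peaks, cut at the edges of the locus, lines across them are summits, black bars are the genes and the grey bar is the antisense gene Dlx1as. SUZ12 forms 2 peaks in 439, 3 in 442 and 1 in WT, and H3K27me3 fills the original row and leaves the rescue row empty. The main break lies at the left end of an H3K4me3 peak, with the small H3K9me3 region further to its left.

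The RefSeq promoter windows (250 bases before to 50 after the transcript start, build GRCm38.p6, the same primary sequence as mm10) matched 2 of the 6 members, Dlx1 and Dlx2. Both are printed because H3K4me3 and SUZ12 peaks overlap on them. Capitals mark CG dinucleotides, the substrate of DNA methylation and a feature of the CpG islands to which PRC2 is drawn. The Dlx1 window is chr2:71529195-71529494 on the plus strand, inside the annotated gene body, and the Dlx2 window is chr2:71546705-71547004 on the minus strand.
Dlx1: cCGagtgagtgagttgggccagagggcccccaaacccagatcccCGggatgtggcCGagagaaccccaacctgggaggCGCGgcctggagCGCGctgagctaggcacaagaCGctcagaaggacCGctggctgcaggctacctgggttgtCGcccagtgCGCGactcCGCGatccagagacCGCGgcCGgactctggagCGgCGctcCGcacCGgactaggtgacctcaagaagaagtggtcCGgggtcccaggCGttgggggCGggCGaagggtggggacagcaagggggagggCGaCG
Dlx2: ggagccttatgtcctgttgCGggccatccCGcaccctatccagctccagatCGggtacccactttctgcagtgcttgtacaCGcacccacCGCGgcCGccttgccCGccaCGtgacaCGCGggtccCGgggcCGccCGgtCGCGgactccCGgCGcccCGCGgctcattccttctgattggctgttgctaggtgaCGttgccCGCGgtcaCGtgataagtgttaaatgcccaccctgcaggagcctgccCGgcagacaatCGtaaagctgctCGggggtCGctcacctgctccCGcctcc

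The Dlx1 window held 27 CG dinucleotides and was 69.3% G or C, and the Dlx2 window held 29 and was 66.3% G or C. The ratio of observed to expected CG was 0.767 for Dlx1 and 0.898 for Dlx2. Over 17492 protein-coding genes with a window the medians were 13 CG dinucleotides, 56.3% and 0.576, and over the 3524 of them with SUZ12 in all 3 lists they were 20, 63.3% and 0.704. Each window held 1 GGGCGG match on either strand, the core letters of a GC box, which 46.3% of protein-coding windows also held at least once. Neither held TAATTA, the palindromic core letters recognised by many homeodomain proteins, found in 4.68% of windows. The motifs share no overlap, and a match is a description of letters only. H3K4me3 covered 100% of both windows in the rescue and in the original list. The H3K4me3 summit lay 128 bp downstream of the Dlx1 transcript start in rescue and 126 bp in original. At Dlx2 it lay at position 71546641 in rescue and 71546638 in original, inside the gene and close to its start at 71546754.

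H3K4me3 at this locus was a row of peaks, 7 in rescue and 8 in original, and all of them lay in the WT SUZ12 peak. The peak at the Dlx2 start had a fold enrichment of 99.0 in rescue (rank 874 of 110840) and 109 in original (rank 1892 of 97213). The peak at the Dlx1 start had 68.1 in rescue and 71.9 in original. In the interval, H3K4me3 covered 56.5% of the bases in rescue and 46.2% in original, including a stretch next to Dlx2 of 3133 bp in rescue (fold enrichment 16.8) and 2944 bp in original (21.6). H3K27ac was listed once, 297 bp at chr2:71546910-71547206 just outside the Dlx2 start, with a fold enrichment of 2.78 and rank 113991 of 128247. Dlx1 had none in its window.

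H3K9me3 was listed in the interval in both experiments, 1001 bp at chr2:71537470-71538470 in rescue and 1731 bp at chr2:71536760-71538490 in original, both within the WT SUZ12 peak. It lay outside the 2500 bp windows of Dlx1 and Dlx2 and had rank 34557 of 104026 in rescue and 20065 of 40376 in original. The main SUZ12 gap of the mutants began 325 bp after the original H3K9me3 region in 439 and 300 bp after it in 442, and the small 442 peak spanned the whole of the rescue H3K9me3 region. H3K4me3 was nearer to the main gap. A rescue H3K4me3 peak overlapped it in both clones, and an original peak began 17 bp after it in 439 and 26 bp after it in 442. The other gap of 442 lay within the original H3K9me3 region. The right edge of the antisense gene Dlx1as, at position 71537891, lay within both H3K9me3 regions and to the left of the main gap. Whether these features have a part in the split was not tested, and no mark list of the mutants was used here.

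Of the 3 loci, this had the widest difference in H3K27me3 between the experiments. The rescue list held no region over either gene, and its nearest was a region at chr2:71494350-71494430, 33683 bp from Dlx1. The original list held a region of 40771 bp, chr2:71515000-71555770, that covered 100% of the locus, reached 14.2% of the body of Metap1d on the left and ranked 76 of 41869. SUZ12 and H3K4me3 were listed at both genes in each of their lists.

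Dlx3 (chr11:95120117-95125296), which acts in skin, hair, tooth and placenta, and Dlx4 (chr11:95140447-95146294), a less studied relative, stood 15150 bp apart. SUZ12 formed separate peaks at the genes. Unlike at the other loci, it covered 0% of the interval in 439, 442 and WT. At Dlx3 the peak had a fold enrichment of 41.6 in 439 (rank 1141) and 50.6 in 442 (rank 468), against 35.6 in WT (rank 1240). At Dlx4 the values were 42.3 in 439 (rank 1109) and 29.8 in 442 (rank 1455), against 31.4 in WT (rank 1456). Dlx3 was thus higher in both mutant lists than in WT, while for Dlx4 the WT value lay between those of the mutants. By rank in its own list WT was lowest at both genes, Dlx3 lying 15.1% from the top in 439 and 5.97% in 442, against 19.7% in WT, and Dlx4 14.6% in 439 and 18.6% in 442, against 23.1% in WT. A further peak to the right of Dlx4, over the lncRNA gene Dlx4os, had 16.7 in 439 and 17.7 in 442, against 16.4 in WT.

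The SUZ12 peaks at Dlx3 and Dlx4 were broader in the mutants. The Dlx3 peak was 5294 bp in 439 and 6132 bp in 442, against 4905 bp in WT. The Dlx4 peak was 6442 bp in 439 and 6110 bp in 442, against 5978 bp in WT, and the peak over Dlx4os was 4618 bp in 439 and 4823 bp in 442, against 2935 bp in WT. The locus was covered to 42.7% in 439 and 43.6% in 442, against 36.7% in WT, which are ratios to WT of 1.17 and 1.19. Both ratios were above the median over all gene windows given above and below the 75th percentile, which was 1.27 for 439 and 1.34 for 442. The summits stayed in place, within 8 bp of WT at Dlx3 and within 61 bp at Dlx4, where the median distance over all genes with SUZ12 in 3 lists was 52 bp for 439 and 55 bp for 442.

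**Figure D2:**
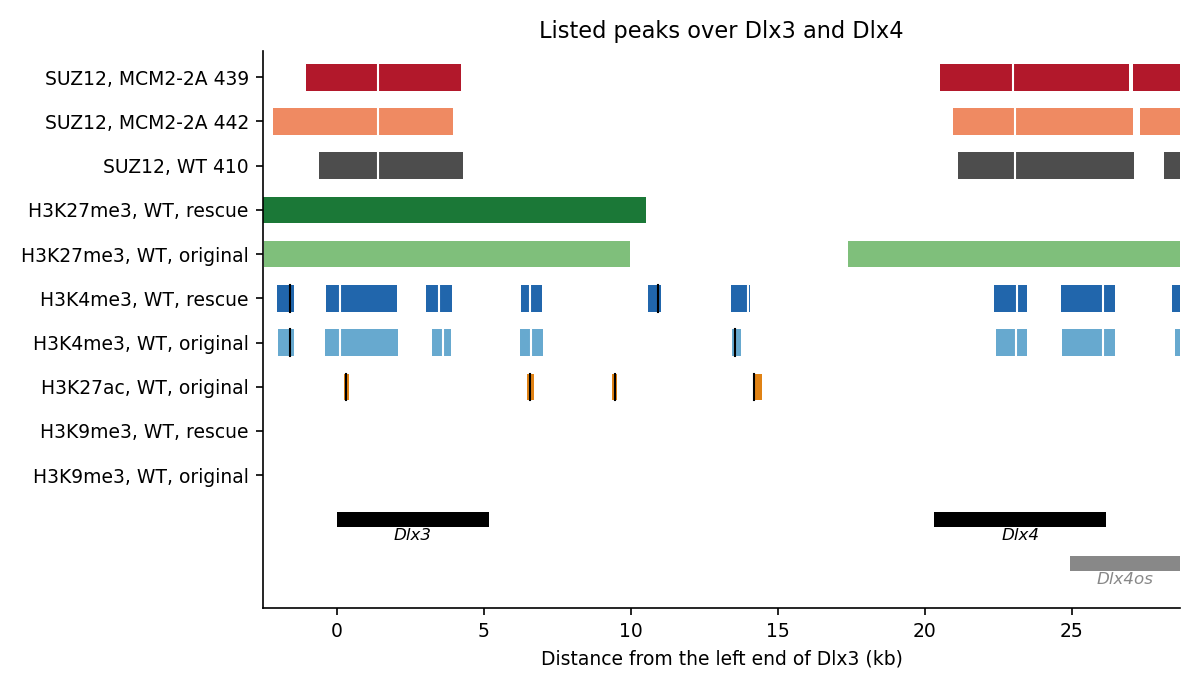
Listed peaks over the Dlx3 and Dlx4 locus (horizontal axis, distance in kb from the left end of Dlx3), drawn as for the other loci, with Dlx4os in grey. SUZ12 sits on each gene and leaves the interval of 15150 bp bare in 439, 442 and WT, and the H3K27me3 region over Dlx4 appears in the original row only.

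H3K27me3 over Dlx3 was listed in both experiments, 16561 bp (chr11:95114070-95130630, rank 1316 of 63473) in rescue and 12461 bp (chr11:95117640-95130100, rank 1171 of 41869) in original. Over Dlx4 it was absent from the rescue list, in which the nearest region was that of Dlx3, 9817 bp away. The original list had a region of 16651 bp there, chr11:95137490-95154140, of rank 105. It also took in 65.0% of the body of the lncRNA gene Gm38659 and 64.9% of Dlx4os. The locus was covered to 41.7% in rescue and 76.2% in original. The missing Dlx4 region accounts for this difference by construction, since rescue covered more bases at Dlx3.

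H3K4me3 had its strongest peak at the start of each gene. At Dlx3 its fold enrichment was 57.7 in rescue and 60.5 in original, and at Dlx4 40.8 in rescue and 48.6 in original. Outside the WT SUZ12 peaks the locus had 4 H3K4me3 peaks in rescue and 3 in original, of at most 25.6 in rescue and 25.3 in original. The Dlx3 and Dlx4 locus was the only locus of the 3 with H3K4me3 peaks outside SUZ12. It also had 4 of the 6 H3K27ac peaks of the family. These were 153 to 301 bp wide with fold enrichments of 3.54 to 4.15, near the median of 3.98 over the whole H3K27ac list, and 3 of them lay outside SUZ12. Within the Dlx3 window there were 2, and within the Dlx4 window 0. No H3K9me3 was listed in the locus in either experiment.

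Dlx6 (chr6:6863334-6867970) and Dlx5 (chr6:6877801-6882068), which pattern the lower jaw and, for Dlx5, drive bone formation, stood 9830 bp apart. Their H3K27me3 domain was the widest of the family, and Dlx6 had the highest SUZ12 fold enrichment of the 6 genes in 442 and in WT. At Dlx6, SUZ12 fold enrichment was 80.7 in 439 (rank 198) and 79.1 in 442 (rank 50), against 111 in WT (rank 38). At Dlx5 it was 52.6 in 439 (rank 734) and 44.8 in 442 (rank 662), against 85.6 in WT (rank 195). The WT value was above both mutant values at each gene. The mutant over WT ratio was 0.724 in 439 and 0.709 in 442 at Dlx6, and 0.614 in 439 and 0.524 in 442 at Dlx5.

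Fold enrichment is a ratio to local background, and no source used here gives a normalisation of it between lists. The mutant over WT ratios at Dlx6 and Dlx5 were therefore read beside those of other genes. Over the 4652 genes with SUZ12 in all lists the median ratio was 1.12 for 439 and 1.01 for 442. Over the 278 of them with a WT fold enrichment of 80 or more, a limit chosen after the Dlx values were known, it was 0.887 for 439 and 0.674 for 442. These 278 were chosen on the WT value, so their medians are no neutral scale. Dlx2 had ratios of 0.806 in 439 and 0.593 in 442 beside these medians. Dlx6 and Dlx2 were among the strongest 3% of peaks in every list, while Dlx5 lay 9.69% from the top in 439 and 8.44% in 442, against 3.10% in WT. The Dlx5 difference depends on the measure of strength. Ranked by the q-value, Dlx5 lay 4.82% from the top in 439 and 5.45% in 442, against 4.11% in WT, and Dlx6 lay 1.32% from the top in 439 and 0.893% in 442, against 1.21% in WT.

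**Figure D3:**
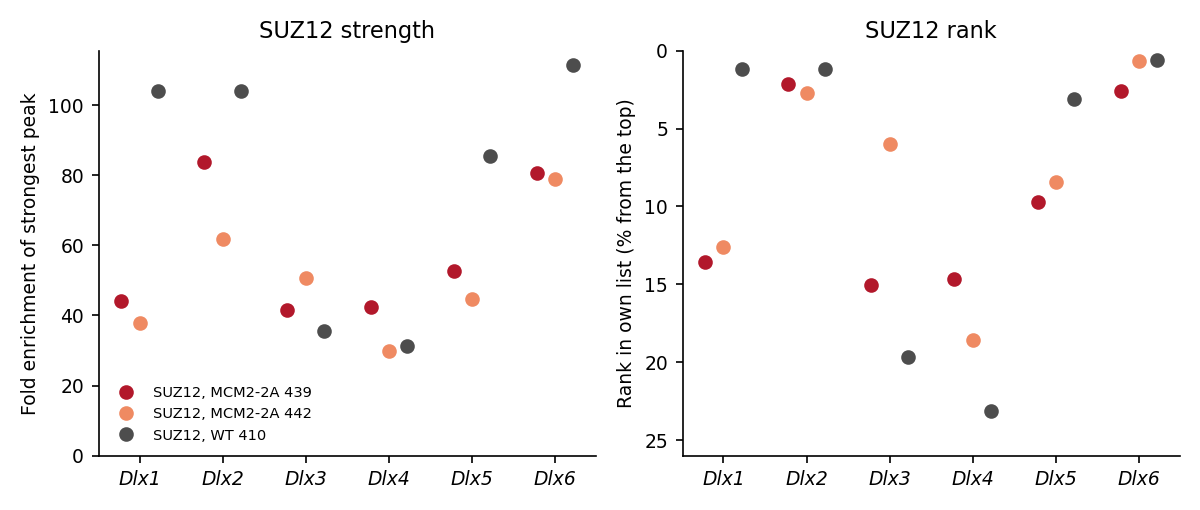
Strongest SUZ12 peak in the window of each Dlx gene, as fold enrichment over local background (left) and as rank within its own list in percent from the top (right, strongest at the top), for MCM2-2A 439, MCM2-2A 442 and WT 410. Each point is a single value from replicates the authors combined. WT is highest at Dlx2, Dlx5 and Dlx6 in both panels, lowest at Dlx3 in both and at Dlx4 in the rank panel only, and its point at Dlx1 is that of the peak it shares with Dlx2.

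SUZ12 at this locus reached far past Dlx6. The Dlx6 peak was chr6:6847372-6867523 (20152 bp) in 439 and chr6:6849425-6867559 (18135 bp) in 442, against chr6:6853881-6867620 (13740 bp) in WT. In WT a separate weak peak of 6306 bp with fold enrichment 4.70 filled chr6:6847434-6853739, a stretch that the 439 peak took in whole and the 442 peak in part. The change was thus the reverse of that at Dlx1 and Dlx2, with more peaks in WT and fewer in the mutants over the same DNA. Of the 439 peaks of 20 kb or wider, 6 of 22 held 2 or more WT peaks, and in 442, where the Dlx6 peak is narrower than that, it was 5 of 21. Over all peaks 3.06% in 439 and 3.35% in 442 held 2 or more WT peaks. This count too was chosen after the values had been seen. The Dlx5 peak was 17318 bp in 439 and 17205 bp in 442, against 16977 bp in WT.

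All 3 lists broke at the right end of Dlx6. The break was 601 bp in 439 (chr6:6867524-6868124) and 561 bp in 442 (chr6:6867560-6868120). In WT a peak of 244 bp with fold enrichment 5.54 stood in the break and left gaps of 100 bp and 126 bp. SUZ12 covered 97.5% of the locus in 439 and 97.6% in 442, against 99.0% in WT, and 98.4% of the interval in 439 and 98.5% in 442, against 98.8% in WT. The summit at Dlx6 was 16 bp from WT in 439 and 41 bp in 442, and that at Dlx5 was 19 bp from WT in 439 and 34 bp in 442.

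**Figure D4:**
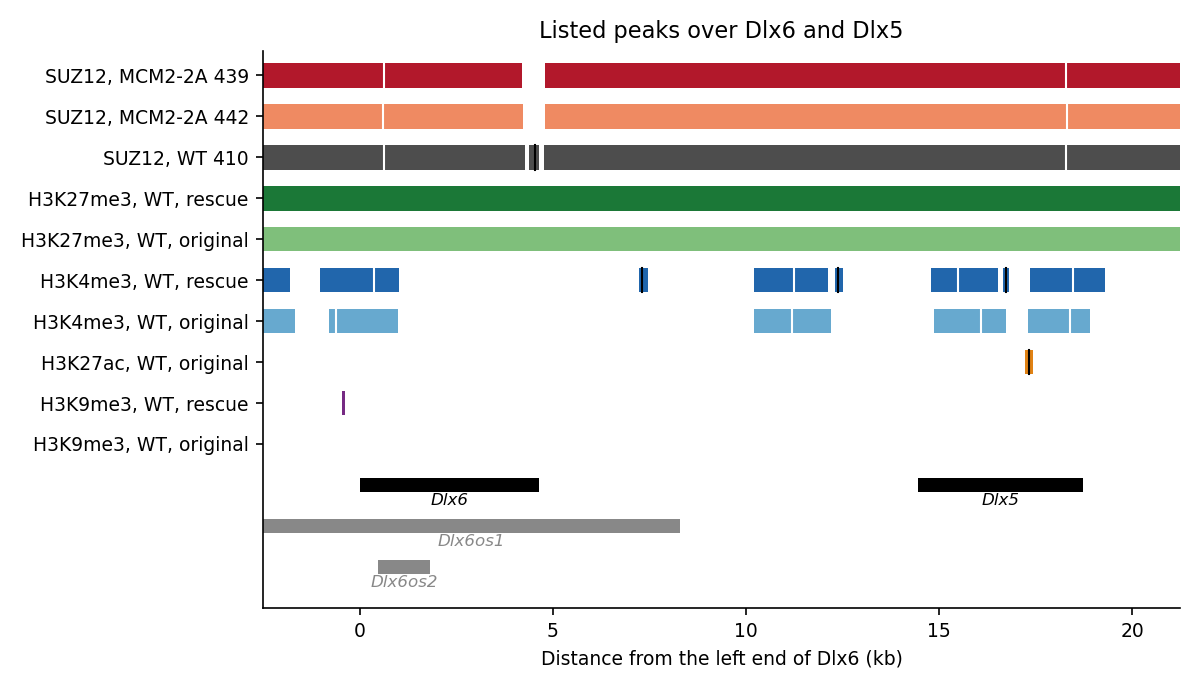
Listed peaks over the Dlx6 and Dlx5 locus (horizontal axis, distance in kb from the left end of Dlx6), drawn as for the other loci, with Dlx6os1 and Dlx6os2 in grey. H3K27me3 fills the locus in both experiments, SUZ12 breaks at the right end of Dlx6 in 439, 442 and WT, and H3K4me3 forms separate islands at the gene starts and in the interval.

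The H3K27me3 domain here was 169081 bp in rescue (chr6:6725580-6894660, rank 88 of 63473) and 154621 bp in original (chr6:6740070-6894690, rank 2 of 41869 and 8th in width). The right edges were 30 bp apart, just past Dlx5. To the left the domain ran over Dlx6os1, Dlx6os2 and Gm34871 in both experiments, over all of Gm52890 in rescue and 76.4% of it in original, and over the pseudogene Gm5873 in rescue only. None of these neighbours is protein-coding.

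H3K4me3 was weaker at Dlx5 and Dlx6 than at the other members. The strongest peak of Dlx5 had a fold enrichment of 39.2 in rescue and 33.3 in original, and that of Dlx6 33.3 in rescue and 26.3 in original. These 2 genes were higher in rescue, while Dlx1 to Dlx4 were lower in rescue than in original. A peak in the interval, far from either start, had 28.5 in rescue (1927 bp) and 18.8 in original (2001 bp), below the values at both genes in each list. All H3K4me3 peaks of the locus, 8 in rescue and 5 in original, lay in WT SUZ12. H3K27ac was listed once, 217 bp in the Dlx5 body with fold enrichment 3.04, and Dlx6 had none. A rescue H3K9me3 region of 71 bp near the Dlx6 start, of rank 91368 of 104026, had no match in the original list.

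Dlx6os1, also known as Evf2, is an antisense lncRNA gene that runs across Dlx6 and into the interval with the shared forebrain enhancers. Its promoter window in the interval is printed because SUZ12 covered all of it in 439, 442 and WT while neither H3K4me3 list nor H3K27ac touched it, and because of its letters. It lies at chr6:6869484-6869783 on the minus strand, and capitals mark TAATTA.
Dlx6os1: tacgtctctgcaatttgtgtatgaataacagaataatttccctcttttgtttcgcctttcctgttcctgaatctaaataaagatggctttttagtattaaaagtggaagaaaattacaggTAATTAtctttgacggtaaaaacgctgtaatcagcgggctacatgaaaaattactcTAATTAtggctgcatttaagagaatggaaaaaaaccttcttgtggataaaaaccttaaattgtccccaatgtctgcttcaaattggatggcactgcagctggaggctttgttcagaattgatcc

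This window held 2 TAATTA matches, 5 CG dinucleotides and 35.7% G or C, against 27 and 29 CG dinucleotides and no TAATTA in the windows of Dlx1 and Dlx2 above. At least 1 TAATTA match was found in 5.29% of all 32851 windows in the table. A second Dlx6os1 window, chr6:6861634-6861933, held 1 TAATTA match and 3 CG dinucleotides, and original H3K4me3 covered 2.33% of it. The windows of Dlx6os2 and Dlx4os held no TAATTA, with 10 and 11 CG dinucleotides. SUZ12 covered 100% of all these windows in 439, 442 and WT. It thus covered windows of different base composition at these loci, but both windows of Dlx members were rich in CG.

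Across the family, WT marks at the 6 genes were H3K4me3 and, in the original list, H3K27me3, with little H3K27ac. H3K4me3 was present at 6 of 6 in rescue (79.4% of all genes) and 6 of 6 in original (78.1%). The median fold enrichment of the strongest H3K4me3 peak was 49.2 over the Dlx genes in rescue and 54.5 in original, below the medians over all genes with a peak of 66.6 in rescue and 77.6 in original. H3K27me3 was present at 3 of 6 in rescue (59.0%) and 6 of 6 in original (40.1%). A gene was called bivalent where an H3K4me3 and an H3K27me3 peak of the same experiment overlapped in its window, which held for 3 of 6 in rescue (40.5%) and 6 of 6 in original (26.6%). H3K27ac was present at 3 of 6 (66.1%), always as a weak and narrow peak, with a strongest value per gene of 2.78 to 4.15 beside a median of 10.4 over all genes with a peak. H3K9me3 was present at 1 of 6 in rescue (58.7%) and 0 of 6 in original (33.8%). None of the 6 could count as active as defined above, since all 6 held SUZ12 in WT.

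Between experiments, H3K4me3 was listed at largely the same places. All 21 original H3K4me3 peaks overlapped a rescue peak, and 21 of 24 rescue peaks overlapped an original peak. Summits of the strongest peak were 2 to 88 bp apart between rescue and original at 5 genes, and 973 bp apart at Dlx6. H3K27me3 in the original and not in the rescue list was found for 3 of 6 Dlx genes, Dlx1, Dlx2 and Dlx4, against 4.77% of all genes. Of the 8769 genes with original H3K27me3, as all 6 Dlx genes had, 11.9% had none in rescue, and of the 3631 of these with SUZ12 in all 3 lists 7.38% had none. Missing entries were common in these lists even at strong sites. Of the 114 original H3K27me3 regions at least as strong as that of Dlx4, 29 (25.4%) had no overlapping rescue region. Of the 4652 genes with SUZ12 in all 3 lists, 487 had no H3K27me3 in rescue and 1021 had none in original. Absence from a list is therefore not a measure of absent H3K27me3, and no signal values were used here that could show its level. Dlx1 and Dlx2 share 1 original region and are not separate cases.

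**Figure D5:**
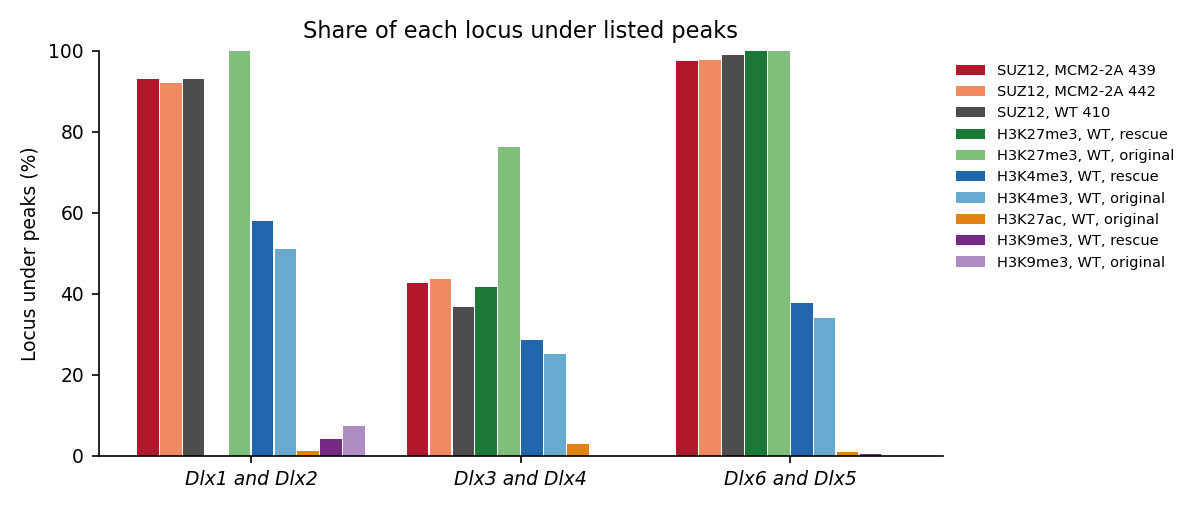
Share of each Dlx locus (both genes, the interval and 2500 bp outside) under listed peaks, in percent, for the 3 SUZ12 lists and the 7 WT mark lists. SUZ12 covers over 91% of the Dlx1 and Dlx2 and the Dlx6 and Dlx5 loci and under 44% of the Dlx3 and Dlx4 locus, and rescue H3K27me3 is at 0% at Dlx1 and Dlx2.

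The distance between SUZ12 and H3K4me3 maxima differed among the genes. From the WT SUZ12 summit to the summit of the strongest H3K4me3 peak it was 202 bp in rescue and 114 bp in original at Dlx5, and 270 bp in rescue and 1243 bp in original at Dlx6. It was 1290 bp in rescue and 1279 bp in original at Dlx3, 1870 bp in rescue and 1867 bp in original at Dlx2, and 2994 bp in rescue and 2983 bp in original at Dlx4. At Dlx1 no such distance is meaningful, since the WT SUZ12 summit is that at Dlx2.

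Genes that act with the Dlx factors were described from lists of 54 genes. Those named from each list were picked for a high WT fold enrichment. This choice favours WT values above the mutant ones, so the values side by side are no neutral comparison of clones. The counts below stand beside shares with SUZ12 over all protein-coding genes of 26.2% in 439, 27.7% in 442 and 22.5% in WT. Of 20 genes of the ventral forebrain and GABAergic neurons, SUZ12 was found at 20 in 439 and 19 in 442, against 20 in WT. The median WT fold enrichment of the list was 78.4. The highest in WT were Nkx2-1, a regulator of the medial ganglionic eminence (84.6 in 439 and 95.9 in 442, against 119 in WT), Sp9 (96.3 in 439 and 45.5 in 442, against 109 in WT), Lhx6, which specifies cortical interneurons (78.1 in 439 and 64.3 in 442, against 99.7 in WT), and Six3 (92.2 in 439 and 76.9 in 442, against 99.7 in WT). Nkx2-1 and Sp9 held H3K27me3 in rescue and not in original, the opposite of Dlx1, Dlx2 and Dlx4.

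Of 18 genes of the pharyngeal arches and endothelin signalling, SUZ12 was found at 16 in 439 and 18 in 442, against 16 in WT. Foxd1 was highest in WT (104 in 439 and 98.1 in 442, against 141 in WT), and high values were also found at Hand2, a target of Dlx5 and Dlx6 in the lower jaw (79.2 in 439 and 68.8 in 442, against 103 in WT), and at Gsc (129 in 439 and 85.9 in 442, against 97.3 in WT). Foxd1 lacked H3K27me3 in rescue and held it in original, as Dlx1, Dlx2 and Dlx4 did.

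Of 16 genes of bone, limb and skin, SUZ12 was found at 9 in 439 and 9 in 442, against 9 in WT. The highest in WT were En1 (58.4 in 439 and 71.7 in 442, against 107 in WT), the signalling ligand Shh (71.3 in 439 and 55.4 in 442, against 97.2 in WT), Bmp2 (82.3 in 439 and 52.3 in 442, against 76.1 in WT) and Runx2, the master regulator of osteoblasts (103 in 439 and 70.4 in 442, against 71.9 in WT). En1 and Bmp2 had no H3K27me3 listed in either experiment. As stated above, absence from a list is not a measure of absent H3K27me3, and many genes with SUZ12 lacked an entry. No gene of the 54 was in both mutant lists and absent from WT, or the reverse. The first pattern held for only 3.08% of all genes, so few could be met among 54. SUZ12 in all 3 lists was found at 44 of the 54, as at the 6 Dlx genes, beside 21.3% of all genes.

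The genes with the pattern most like each member were found by the mean absolute difference in rank fraction of the strongest peak over the 10 lists (0 where a list has none, 1 for its strongest peak). They were Tbx21 (0.0184) and Myorg (0.0223) for Dlx1, Hoxc13 (0.0323) and Peg12 (0.0325) for Dlx2, and Htr1a (0.0151) and Dusp26 (0.0165) for Dlx4. For Dlx3 they were Cited4 (0.0207) and Bcan (0.0248), for Dlx5 C2cd4d (0.0191) and Cdkn1c (0.0206), and for Dlx6 Gfi1 (0.0198). Presence or absence in each list enters this measure, so likeness in it follows from the choice.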

How the data were processed

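SUZ12 ChIP-seq used sonicated, crosslinked chromatin. Mark ChIP-seq was native, on MNase-digested chromatin. Drosophila chromatin was added as a spike-in in both. Per the submitters' processing notes, BWA 0.7.15, MACS2 2.1.0, cutadapt 2.5 and Picard 2.20.7 were used, with genome mm10. Settings of the peak calling are not given in the sources used. For each narrow peak (SUZ12, H3K4me3, H3K27ac) the authors deposited a fold enrichment, which is a ratio, a −log10 q-value and a summit offset. For each broad region (H3K27me3, H3K9me3) the authors deposited a strength score of unknown scale, taken for ranks only. The authors filtered SUZ12 peaks for reproducibility by irreproducible discovery rate. The mark lists too are named by the authors as reproducible peaks. Of the 136 samples, 26 lay behind the 10 lists. Mark lists of mutant clones were not used, and depth was unknown.

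Peaks were overlapped with RefSeq genes of GRCm38.p6, whose chromosomes have the coordinates of mm10, in python 3.11.15 with numpy 2.4.6 and pandas 2.3.3. Overlap and coverage routines were tested on simulated intervals. Ranks are by fold enrichment or score within a list. With combined replicates no test could be run, and comparisons are descriptions beside the shares over all 21887 protein-coding genes. Alternatives were gene bodies alone, 5000 bp on each side, an overlap of 500 bp, the strongest 50% of each list, an equal number of SUZ12 peaks (5038 each), loci extended by 25000 bp, peaks joined within 1000 bp, ranks by q-value, the median over a gene's peaks, and a rescue list limited to the original list's total length.

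The members, gene lists and comparisons were chosen with earlier results of these data known. Named were all members with their peaks, genes under the same peak or region as a member, up to 4 genes per network list by WT SUZ12 fold enrichment and any whose SUZ12 differed between WT and both mutants, and for each member the 2 genes, at least 100000 bp from any member, with the closest rank pattern. Some genes that this rule names are not reported here.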

Additional observations from a re-analysis of the deposited data

How the results depend on the processing

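No paired analysis was possible because each list combines the replicates of its clone, and leaving out a replicate could not be done for the same reason. A value was taken as unmoved when it stayed within 1.5 times the reported value. The presence of SUZ12 at 6 of 6 genes, the ratios of SUZ12 covered length and the H3K27me3 ratios of rescue over original were unmoved under every alternative run for them. Loci covered nearly in full leave the ratios little room to move. Alternatives that only remove weaker peaks could not add a rescue H3K27me3 region at Dlx1 and Dlx2. They could not remove SUZ12 either, as each gene's strongest peak lay at most 23.1% from the top of its list. For these cases the outcome was fixed in advance. SUZ12 ranks did move. Ranked by q-value, Dlx3 lay 8.27% from the top in 439, against 10.3% in WT, Dlx5 lay 4.82% from the top in 439 and 5.45% in 442, and Dlx6 lay 1.32% from the top in 439, against 1.21% in WT. By the median over the peaks in the window, Dlx4 lay 27.3% from the top in 439, and Dlx6 lay 6.16% from the top in 439 and 4.54% in 442, against 3.10% in WT. The number of Dlx genes with H3K27ac, 3 as reported, was 0 with an overlap of at least 500 bp and 1 in the strongest 50% of the list. The number with rescue H3K9me3, 1 as reported, was 0 with gene bodies alone, with an overlap of 500 bp and in the strongest 50%, and 3 with 5000 bp on each side. The number with original H3K9me3, 0 as reported, was 2 with 5000 bp on each side. The number of bivalent genes, 6 in the original experiment, was 3 in the rescue experiment. The wider windows reach the H3K9me3 region between Dlx1 and Dlx2. Without replicates or depth, differences between clones and between experiments cannot be told apart from differences between libraries or peak calls.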
